A study of Mus musculus with 14 samples.

Results

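The 4 Hox clusters of the mouse genome were examined for H3K27me3, the trimethylation of lysine 27 on histone H3. Every listed peak overlapping HoxA (chr6:52150000-52265000), HoxB (chr11:96190000-96370000), HoxC (chr15:102915000-103040000) or HoxD (chr2:74665000-74770000) in mm10 was taken. These were 179 of the 23668 listed peaks, with 40 in HoxA, 56 in HoxB, 45 in HoxC and 38 in HoxD. The windows held 38 listed Hox genes, from Hoxa2 to Hoxd13. The choice used positions only and no measured level.

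Wild-type primary hippocampal neurons from embryos of CD1 mice, with litters of mixed sex, were grown in culture and received gapmers in lipid nanoparticles. Gapmers are antisense oligomers with locked ends that lead to cleavage of the RNA they pair with. The knockdown cultures received a gapmer against the long noncoding RNA NeuID, and the controls received a negative control gapmer with no known target. Chromatin was precipitated with an antibody against H3K27me3 and sequenced, with 6 control libraries, 6 NeuID knockdown libraries and 1 input library of each kind according to the sample titles. The overall means of all 179 peaks were weighted as 6 control to 5 knockdown libraries, which differs from the equal numbers in the titles. The study's text gives fewer libraries for each group than the titles do, so which libraries entered the means is uncertain for both groups. The sources used here do not say whether the libraries came from separate preparations. The cultures are bulk samples, so fewer cells with the mark and less mark per cell cannot be told apart. No RNA values were used here, and the neuronal identity of the cultures was not checked against marker genes.

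Hox genes encode homeodomain transcription factors that set position along the body axis of the embryo. They lie in 4 clusters in the order of their paralogue groups, with low groups acting toward the head and high groups toward the tail. Polycomb repressive complex 2 deposits H3K27me3, and in cells of the forebrain, where Hox genes are normally silent, the mark typically covers the clusters as long domains.

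The measured quantity was the mean of normalized reads per peak in each group, which the authors deposited on a log2 scale. Differences are given below as knockdown minus control on that log2 scale, and levels of different peaks are compared as normalized reads per kb of peak. A peak is called lower or higher where the difference lies beyond 1, which is a description and not a test. Values of single libraries were not used here, and therefore no value carries an SD, an n or a p-value. Sequencing depth of the libraries is unknown from the table.

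H3K27me3 peaks tiled all 4 clusters. They covered 426 kb in total, and the share of the window under a peak was 87.2% in HoxC, 85.4% in HoxA, 80.6% in HoxD and 70.4% in HoxB. The median width of a Hox peak was 1409 bp, against 426 bp over all listed peaks. The control level over all Hox peaks was 31.8 normalized reads per kb, against 21.3 over all listed peaks. The 4 clusters lay close together in control level, between 30.4 reads per kb in HoxC and 32.8 in HoxA.

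HoxB was the least covered cluster. Its longest gap without a peak was 16224 bp (chr11:96211382-96227605), between Hoxb13 and Hoxb9, while the longest gap of HoxC was 1276 bp. Over the span from the first to the last listed Hox gene, coverage remained at 69.6% in HoxB and 88.5% in HoxC. Sequence between HoxB peaks was 43.5% repeat-masked, and sequence under them 16.4%. In the other clusters the repeat-masked share was 18.7% to 24.8% between peaks. Sequence under peaks was also richer in CpG, with 2.24 to 3.07 CpG per 100 bp under peaks and 1.03 to 2.13 between them.

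The widest of all listed peaks lay in HoxD. It spanned 12729 bp (chr2:74729722-74742450) over the start of Hoxd3, and stood at 32.5 normalized reads per kb in control and 27.4 after knockdown. The widest HoxC peak spanned 11257 bp over the start of Hoxc12, the widest HoxB peak 9553 bp over that of Hoxb9, and the widest HoxA peak 8145 bp over those of Hoxa5 and Hoxa6. Of the 50 widest listed peaks, 18 lay in the Hox windows. Of the 50 peaks with the highest control level per kb, none did.

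**Figure D1:**
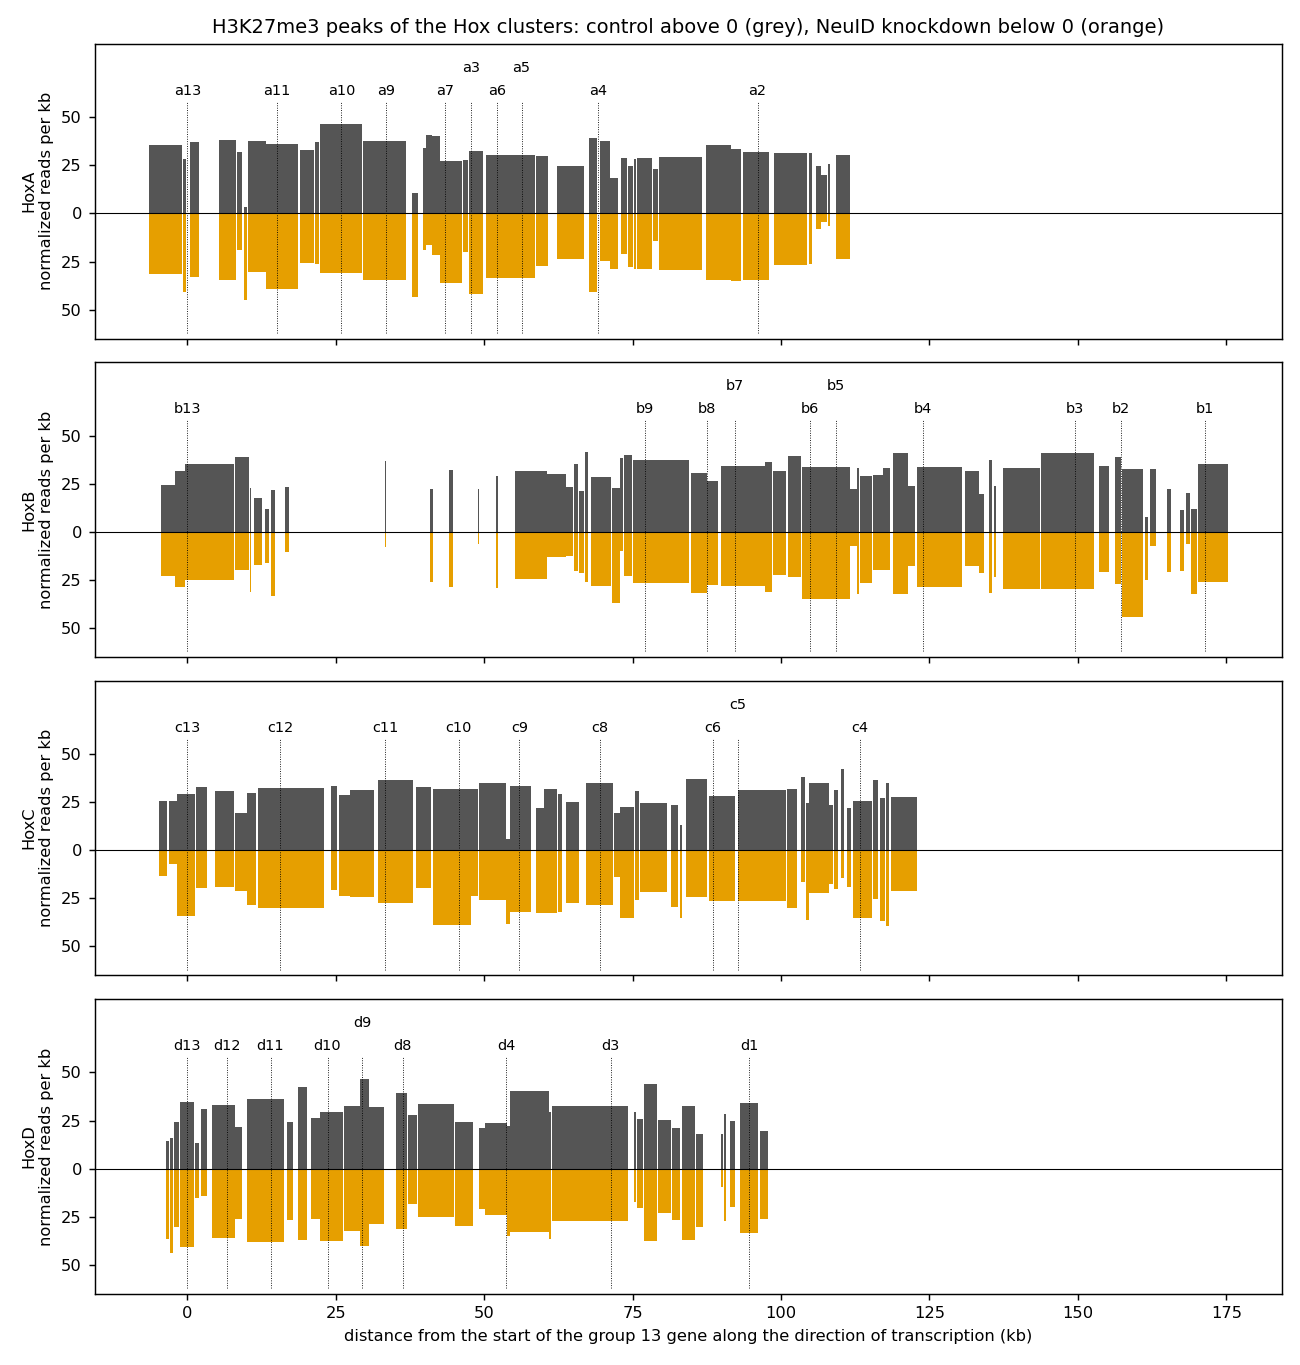
Map of the H3K27me3 peaks in HoxA, HoxB, HoxC and HoxD, plotted by distance in kb from the start of the group 13 gene along the direction of transcription. Grey bars above 0 are the control means and orange bars below 0 the NeuID knockdown means in normalized reads per kb, and dotted lines mark the listed Hox gene starts. Peaks tile each cluster, with the longest gap (16224 bp) between Hoxb13 and Hoxb9.

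The clusters also carry microRNA genes, with seeds, bases 2 to 8, shown in capitals. They are shown because each of these genes lay under a Hox peak. The mature sequences are those of RefSeq (GRCm38.p6).
mmu-miR-10a-5p: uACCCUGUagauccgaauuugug
mmu-miR-10b-5p: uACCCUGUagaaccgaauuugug
mmu-miR-196a-5p: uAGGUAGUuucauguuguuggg
mmu-miR-196b-5p: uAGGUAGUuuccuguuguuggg
mmu-miR-615-3p: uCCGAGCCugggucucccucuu

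The seed ACCCUGU was common to miR-10a in HoxB (chr11:96317186-96317208, plus strand) and miR-10b in HoxD (chr2:74726074-74726096, plus strand). The seed AGGUAGU was common to miR-196a, encoded by Mir196a-1 in HoxB and Mir196a-2 in HoxC, and to miR-196b in HoxA. The peak over Mir10a stood at 7.99 in control and 7.75 after knockdown on the log2 scale, and that over Mir10b at 8.05 and 7.75. The peak over Mir196a-2 stood at 7.32 in control and 6.88 after knockdown, whereas that over Mir196a-1 stood at 6.59 and 6.57. The peaks over Mir196b (8.10 and 7.99) and Mir615 (7.98 and 7.73) also had a lower knockdown than control mean. All 6 knockdown means were thus below control, with none beyond a difference of 1, and at Mir196a-1 the difference was only -0.01. These peaks were 3386 bp wide or more. Outside the windows, 62.3% of peaks of 2 kb or more also had a knockdown mean below control, and 3.55% differed by more than 1.

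Within the clusters as a whole, H3K27me3 was slightly lower after knockdown. The median difference over the 179 peaks was -0.15 (quartiles -0.52 and 0.13), against -0.02 over all listed peaks. The knockdown mean was below control in 117 Hox peaks (65.4%), and this share was 50.8% over all peaks. Hox peaks are wide, however, and wide peaks elsewhere leaned the same way. Among peaks of 2 kb or more, 68.5% of Hox peaks and 62.3% of those outside the windows had a knockdown mean below control, and summed reads came to 89.2% and 92.3% of control. At 4 kb or more these shares of peaks were 78.1% and 70.6%. Summed normalized reads came to 89.0% of control in the Hox windows and to 97.5% in peaks outside them. The group means carry no spread and the authors' own tests of each peak were not used here, so whether these differences exceed the spread between libraries was not tested.

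Few Hox peaks differed by more than the limit. Of 179, 16 were lower (8.94%) and 8 were higher (4.47%), against 20.6% lower and 20.4% higher over all listed peaks. Hox peaks are wide and strong, and beyond-limit differences were rarer among such peaks throughout the list. Among peaks of 2 kb or more, 1 of 73 Hox peaks was lower (1.37%) and 0 were higher, against 2.74% lower and 0.577% higher over all peaks of that width. Among peaks under 1 kb, 10 of 60 Hox peaks were lower (16.7%) and 6 were higher (10.0%), against 22% and 22.1%. No Hox peak was listed at 0 in either group, whereas 1571 of the 23668 listed peaks were. Of the 2182 peaks of 1 kb or more outside the windows, 0 were at 0, and 119 of the 179 Hox peaks were that wide.

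**Figure D2:**
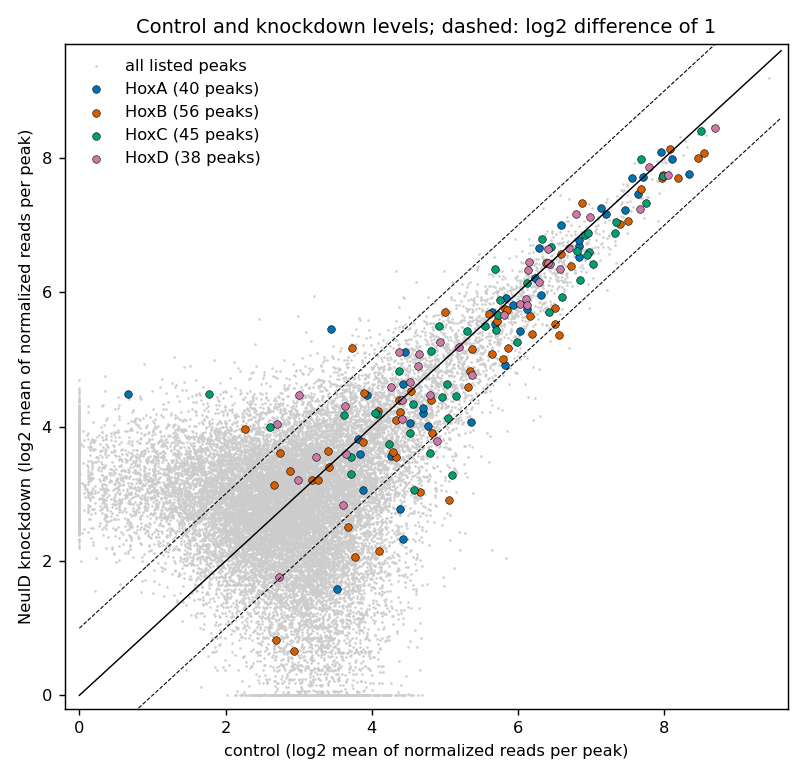
Control (x axis) and NeuID knockdown (y axis) means of normalized reads per peak, both log2, for all 23668 listed peaks in grey and for the peaks of HoxA, HoxB, HoxC and HoxD in colour. The solid line marks equal means and the dashed lines a difference of 1. The 16 lower and 8 higher Hox peaks lie outside the dashed lines, mostly at low levels.

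The 4 clusters differed in how far the knockdown lay below control. HoxB stood at 81.1% of control in summed reads, or 32.5 normalized reads per kb in control and 26.4 after knockdown. HoxC stood at 88.7% (30.4 and 26.9 per kb), HoxA at 93.1% (32.8 and 30.6 per kb) and HoxD at 96.4% (31.5 and 30.4 per kb). The median differences gave the same order, with -0.25 in HoxB, -0.24 in HoxC, -0.15 in HoxA and -0.01 in HoxD. The knockdown mean was below control in 41 of 56 HoxB peaks, 30 of 45 HoxC peaks, 26 of 40 HoxA peaks and 20 of 38 HoxD peaks.

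Wide peaks showed the same order. Among peaks of 2 kb or more, HoxB stood at 80.5% of control, HoxC at 89.4%, HoxA at 94.6% and HoxD at 95.4%, against 92.3% for the 620 peaks of that width outside the Hox windows. Of these wide peaks, 16 of 19 in HoxB had a knockdown mean below control, compared with 14 of 21 in HoxC, 12 of 18 in HoxA, 8 of 15 in HoxD and 386 of 620 outside the windows. At a matched strength, with overall log2 means from 5 to 7, HoxB stood at 76.4% and HoxD at 101%, against 93.8% outside. HoxB thus lay below, and HoxD above, the peaks elsewhere under each of these separate cuts on width and on strength. Peaks were not matched on width and strength together, and the comparison was not tested.

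Peaks of the same chromosomes were set beside the clusters. Other peaks of 2 kb or more stood at 95.9% of control on chromosome 11, which holds HoxB (50 peaks), and at 87.3% on chromosome 15, which holds HoxC (21 peaks). They stood at 90.9% on chromosome 6, which holds HoxA (27 peaks), and at 94.4% on chromosome 2, which holds HoxD (65 peaks). Among peaks of this width, HoxB thus lay below those of its own chromosome, whereas HoxA, HoxC and HoxD lay above theirs. The 30 peaks within 100 kb beside the HoxB window stood at 88.4%. Beside HoxD, the corresponding 20 peaks stood at 83.9%, lower than the cluster itself. Beside HoxA and HoxC, the flanking peaks stood at 96.6% (28 peaks) and 95.3% (46 peaks).

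**Figure D3:**
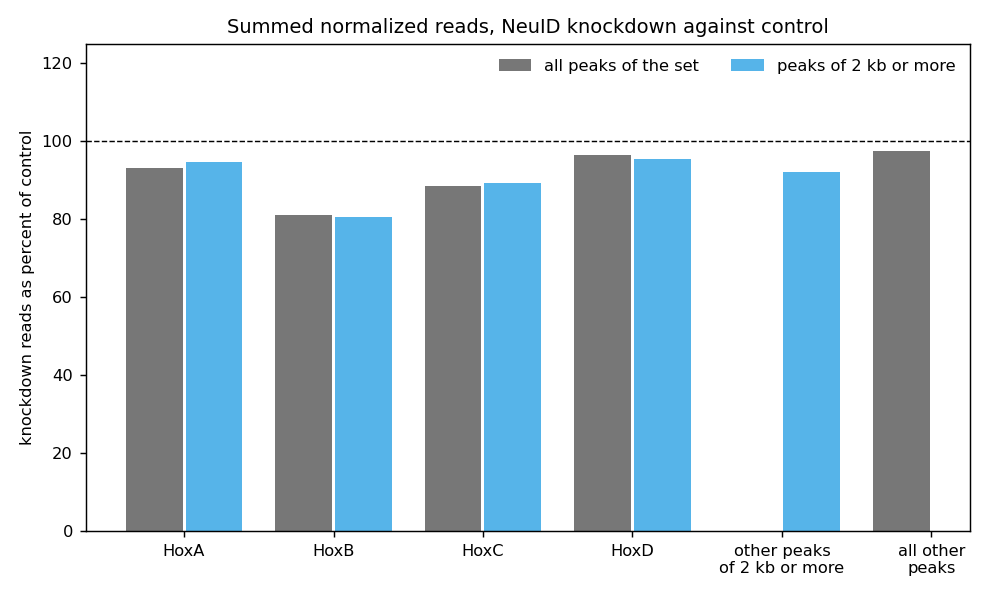
Summed normalized reads of the NeuID knockdown as a percentage of the control (y axis) for HoxA, HoxB, HoxC, HoxD and peaks outside the windows, with all peaks in grey and peaks of 2 kb or more in blue. The dashed line marks equality, and there are no error bars because the values are sums of group means. HoxB is lowest at 81.1% and 80.5%.

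Position within a cluster was described by the paralogue group of the nearest Hox gene start. Pooled over the clusters, peaks nearest to groups 1 to 3 stood at 90.5% of control. Those nearest to groups 4 to 8 stood at 88.7% and those nearest to groups 9 to 13 at 88.5%. HoxC has no listed gene of groups 1 to 3, so the first value covers HoxA, HoxB and HoxD only. The start used for Hoxa3 lies between Hoxa7 and Hoxa6, and peaks nearest to it count with groups 1 to 3. The pooled values therefore mix different clusters, and no gradient was read from them. The clusters diverged at their tail-end genes. HoxD peaks nearest to groups 9 to 13 stood at 107% of control, with 6 of 16 below it, whereas the corresponding HoxB peaks stood at 75.2%, with 18 of 25 below. The HoxA and HoxC peaks of these groups stood at 89.7% and 88.5%. In HoxD the groups 4 to 8 stood at 87.1% and the groups 1 to 3 at 92.8%, both below the tail end of the same cluster. In HoxB the other groups stood at 84.2% (4 to 8) and 85.0% (1 to 3).

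Gene starts were covered throughout. The start of 34 of the 38 Hox genes lay under a peak (89.5%), against 5.14% of 21913 other protein-coding genes of the annotation. The exceptions were Hoxa4, Hoxa13, Hoxb2 and Hoxb8, and each had a peak within 1 kb. The distance was 14 bp for Hoxb8, 35 bp for Hoxb2, 155 bp for Hoxa4 and 205 bp for Hoxa13. The peak beside Hoxb2 stood at 6.87 in control and 7.32 after knockdown on the log2 scale, and the differences beside Hoxa4 and Hoxb8 were 0.06 and 0.08. That beside Hoxa13 stood at 3.93 and 4.47, and it was only 545 bp wide. At 13 genes the whole transcript lay under peaks, and the lowest covered share was 69.1%, for Hoxa13.

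No peak over a gene start differed by more than 1, but these peaks were wide (1487 bp or more), and outside the windows 3.55% of peaks of 2 kb or more were beyond that limit. The 34 starts lay in 32 peaks, of which 18 had a knockdown mean below control and 14 above, and 31 of 32 differed by at most 0.5. Start peaks were below control in 6 of 7 cases in HoxB and 6 of 9 in HoxC, but in 2 of 7 in HoxA and 4 of 9 in HoxD. The median difference of start peaks was -0.45 in HoxB, -0.08 in HoxC, 0.02 in HoxD and 0.13 in HoxA.

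In HoxA, whose tail-end genes pattern the limbs and the reproductive tract, Hoxa10 had the largest difference of all start peaks. Its peak, which also had the highest control level per kb of the cluster, stood at 46.5 normalized reads per kb in control and 31.1 after knockdown (log2 8.34 and 7.76, a difference of -0.58). Hoxa9 went the same way to a smaller extent, with 37.6 and 34.8 reads per kb. The other HoxA starts had a higher knockdown mean. Hoxa7 had log2 means of 6.58 in control and 7.01 after knockdown, and Hoxa3, a gene of throat and neck development, 6.29 and 6.66. The start used for Hoxa3 is that of its long transcript, between Hoxa7 and Hoxa6. Hoxa11 stood at 35.9 and 39.3 reads per kb, Hoxa2, which patterns the second branchial arch, at 31.9 and 34.8, and the peak shared by Hoxa5 and Hoxa6 at 30.6 and 33.5. The starts of HoxA therefore lay on both sides of control.

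In HoxB, 4 start peaks spread along the whole cluster had nearly equal differences. Hoxb13, a gene of the tail end and the prostate, stood at 35.3 normalized reads per kb in control and 25.2 after knockdown (difference -0.49 on the log2 scale). Hoxb9 stood at 37.1 and 26.8 reads per kb (-0.47) and Hoxb3 at 41.1 and 29.8 (-0.46). Hoxb1, which specifies a hindbrain segment, stood at 35.4 and 25.9 reads per kb (-0.45). Smaller differences were seen at Hoxb7, with 33.9 and 28.1 reads per kb, and at Hoxb4, with 33.4 and 28.5. The peak shared by Hoxb5 and Hoxb6 was the exception of this cluster, at 33.9 reads per kb in control and 35.1 after knockdown.

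In HoxC, the genes on both sides of control were interspersed. Hoxc11 stood at 36.6 normalized reads per kb in control and 27.5 after knockdown, whereas its neighbour Hoxc10, a gene of lumbar motor neurons, stood at 31.6 and 38.8. Hoxc8 stood at 34.9 and 28.6 reads per kb, and Hoxc5 at 31.2 and 26.3. Hoxc6, Hoxc9 and Hoxc12 were nearly level, with differences between -0.10 and -0.07 on the log2 scale. At the head end, Hoxc4 had the largest positive start difference of all clusters, with 25.6 reads per kb in control and 35.3 after knockdown (0.47 on the log2 scale). At the other end, Hoxc13, which acts in hair and nail formation, stood at 29.0 and 33.9 reads per kb.

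In HoxD, the tail-end genes Hoxd10 to Hoxd13, which pattern digits and limbs, all had a higher knockdown than control mean. Hoxd10 stood at 29.2 normalized reads per kb in control and 37.8 after knockdown, and Hoxd13 at 34.5 and 40.9. Hoxd12 stood at 32.9 and 36.1 reads per kb, and Hoxd11 had log2 means of 7.80 and 7.87. The next genes lay below control, with 46.6 and 40.4 reads per kb at Hoxd9, which had the highest control level per kb of any start peak, and 39.0 and 31.6 at Hoxd8. Hoxd4 (23.5 and 23.9 reads per kb) and Hoxd1 (34.2 and 33.2) were nearly level. Over the starts in HoxD, the means were thus above control from Hoxd13 to Hoxd10 and below it at Hoxd9, Hoxd8 and Hoxd3, the last of which lay under the widest peak.

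**Figure D4:**
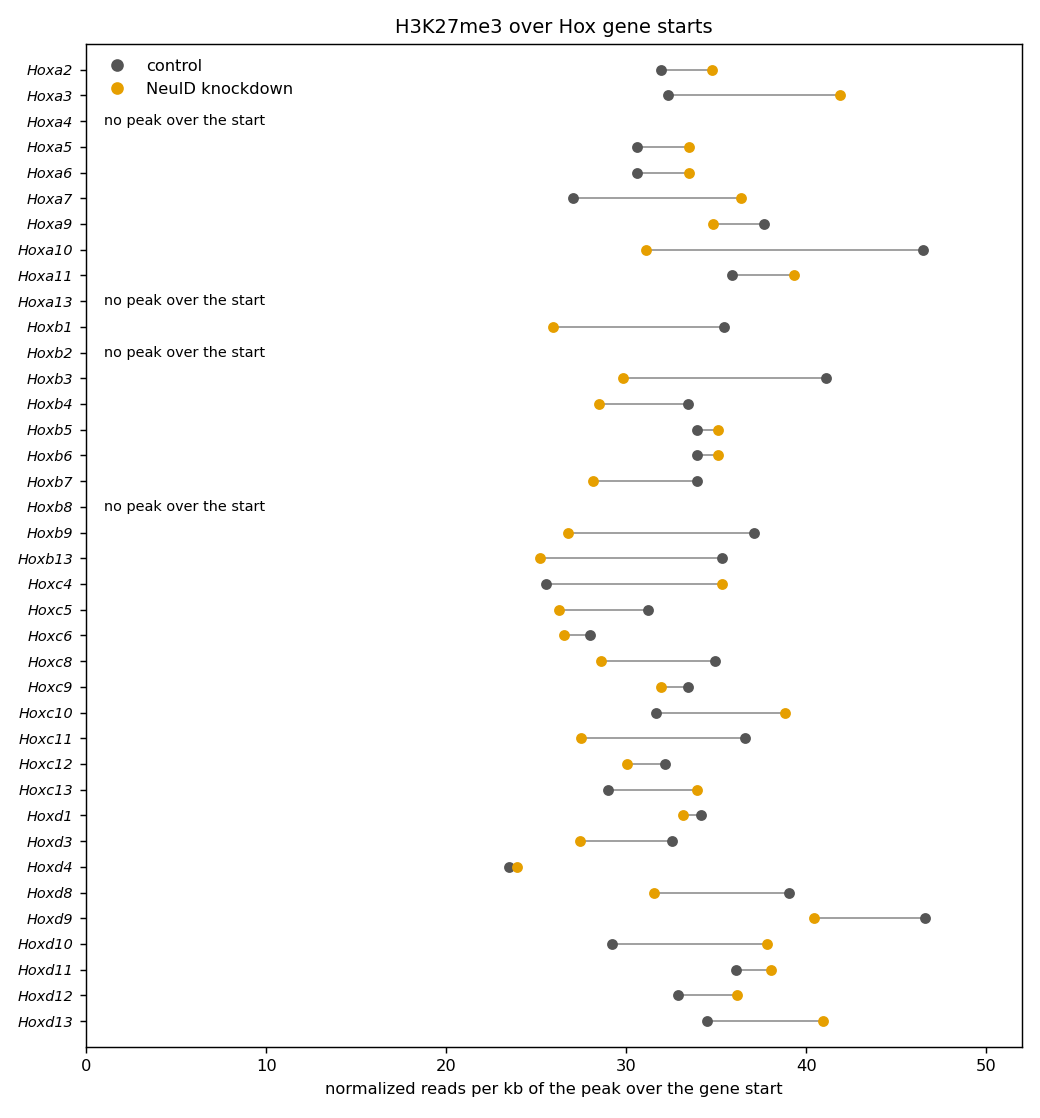
Normalized reads per kb (x axis) of the peak over each Hox gene start, with the control mean in grey and the NeuID knockdown mean in orange, 1 gene per row. The 4 genes with no peak over the start are marked. Hoxa10 has the largest difference, from 46.5 in control to 31.1, and 6 of 7 HoxB start peaks lie below control.

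The promoters of the start peaks with the most negative and the most positive difference among genes in the RefSeq promoter table are shown, with CpG dinucleotides in capitals. Each runs 5′ to 3′ from 250 bases before to 50 after an annotated start (GRCm38.p6). The first is Hoxa10 (chr6:52234890-52235189, minus strand) and the second Hoxc4 (chr15:103034145-103034444, plus strand).
Hoxa10: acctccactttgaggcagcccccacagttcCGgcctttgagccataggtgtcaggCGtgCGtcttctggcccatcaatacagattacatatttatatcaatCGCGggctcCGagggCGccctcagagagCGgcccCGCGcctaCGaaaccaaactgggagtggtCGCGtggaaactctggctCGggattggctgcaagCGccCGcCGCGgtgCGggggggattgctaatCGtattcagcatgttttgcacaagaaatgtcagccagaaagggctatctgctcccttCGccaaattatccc
Hoxc4: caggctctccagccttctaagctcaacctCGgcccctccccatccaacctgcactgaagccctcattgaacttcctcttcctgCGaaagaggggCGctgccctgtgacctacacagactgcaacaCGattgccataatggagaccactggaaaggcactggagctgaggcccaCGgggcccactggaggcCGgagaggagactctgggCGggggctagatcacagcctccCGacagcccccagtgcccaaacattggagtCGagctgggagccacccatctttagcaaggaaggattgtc

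The Hoxa10 promoter shown held 21 CpG and the Hoxc4 promoter 9. The table had entries for 22 of the 38 genes, in 24 promoters. Their median was 14.5 CpG per promoter, against 7 over 32851 promoters of the table, and their median GC content was 57.7%, against 52.7%. The retinoic acid receptor motif AGGTCA was found in 7 of 24 Hox promoters (29.2%) and in 16.3% of all promoters, with both strands searched. The Pbx-Hox motif TGATNNAT was found in 4 (16.7%, against 8.85%), the Sp motif GGGCGG in 10 (41.7%, against 35.7%), and the Meis motif TGACAG and the Cdx motif TTTATNG in 2 each (8.33%, against 19.2% and 10.9%). These matches describe letters in the sequence and not bound sites. The Hoxc4 promoter held 1 match of AGGTCA and 1 of GGGCGG, and the Hoxa10 promoter shown none of the 5 motifs. The other Hoxa10 entry (chr6:52240805-52241104), which does not cover the start used here, held 12 CpG and 2 matches of GGGCGG.

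None of the 24 peaks beyond the limit lay over a Hox gene start or a coding exon. Intergenic sequence held 16 of them, out of 48 intergenic Hox peaks (33.3%). Introns held 5 of 34 (14.7%), and non-coding exons or untranslated regions 3 of 52 (5.77%). These classes also differed in width, with medians of 932.5 bp for intergenic, 817 bp for intronic and 4408 bp for coding-exon peaks, and the part of width in these shares was not tested. Peaks over a start stood at 91.9% of control in summed reads, and the 147 peaks over none at 86.5%. By annotation, intronic peaks stood at 75.6% of control (34 peaks, 27 below), intergenic peaks at 86.3% (48) and peaks over a coding exon at 91.2% (45). No peaks of these classes outside the windows were set beside them. The parts of width and of cluster in these percentages were not tested.

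The largest difference of any Hox peak was in HoxA, in an intergenic peak of 502 bp (chr6:52250874-52251375) that lay 5064 bp from the start of Hoxa11. Its log2 mean was 0.67 in control and 4.49 after knockdown, a difference of 3.82. The 300 bases at its centre are shown for their contrast with the promoters above, since they hold 1 CpG, in capitals, and a run of CA repeats (chr6:52250975-52251274, plus strand of GRCm38).
HoxA peak centre: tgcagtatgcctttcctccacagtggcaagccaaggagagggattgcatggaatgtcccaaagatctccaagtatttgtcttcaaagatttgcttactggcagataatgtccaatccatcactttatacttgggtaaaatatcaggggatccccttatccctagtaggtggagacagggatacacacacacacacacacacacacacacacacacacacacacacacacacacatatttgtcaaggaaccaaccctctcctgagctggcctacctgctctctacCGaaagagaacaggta

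A second higher peak of HoxA lay 4297 bp from the start of Hoxa9, with log2 means of 3.44 in control and 5.46 after knockdown. In HoxC, an intronic peak of 584 bp lay 1615 bp from the start of Hoxc9 and stood at 1.77 and 4.48. Another, 5075 bp from the start of Hoxc6, stood at 2.61 and 4.00. The higher HoxB peaks lay 3934 bp from the start of Hoxb2 (2.27 and 3.97) and 1315 bp from that of Hoxb1 (3.74 and 5.17). Both higher HoxD peaks lay beside each other at the tail end of the cluster, 2428 and 3111 bp from the start of Hoxd13, at 3.00 and 4.47 and at 2.71 and 4.04. All 8 higher peaks were thus narrow, with the widest at 1112 bp.

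Lower peaks lay in all 4 clusters. In HoxA, 3 neighbouring intergenic peaks lay 9779 to 11784 bp from the start of Hoxa2, within 5 kb of the start of the noncoding RNA Hotairm1. Their log2 means in control were 4.39, 4.43 and 3.52, and after knockdown 2.78, 2.34 and 1.59. The remaining lower HoxA peak, 2193 bp from the start of Hoxa7, stood at 5.36 and 4.06.

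HoxB, which has the most peaks (56), held 8 of the 16 lower peaks. These were 14.3% of its peaks, against 20.6% lower over all listed peaks. A peak of 3182 bp in an intron (chr11:96254917-96258098), 13359 bp from the start of Hoxb9, was the only lower Hox peak wider than 2 kb and stood at 6.57 in control and 5.36 after knockdown. A peak 4860 bp from the start of Hoxb2 stood at 5.05 and 2.90, and its neighbour was the higher peak beside Hoxb2 named above. The peak over the start of Hoxb5os, an RNA antisense to Hoxb5, stood at 4.65 and 3.03. The stretch between Hoxb13 and Hoxb9 held 21 peaks, with a median width of 648 bp, and stood at 75.6% of control. Of these, 5 were lower (23.8%), close to the share over all listed peaks given above, and 0 were higher. Besides the intronic peak, they were narrow peaks of 207 to 549 bp. The narrowest, 33290 bp from the start of Hoxb13, had the most negative difference of any Hox peak (-2.27), with log2 means of 2.93 in control and 0.66 after knockdown. The others lay 16517 bp from the start of Hoxb13 (3.67 and 2.51) and 27939 and 3764 bp from that of Hoxb9 (2.68 and 0.82, and 4.09 and 2.16). The last lower HoxB peak lay outside the stretch, 2545 bp from the start of Hoxb1 (3.77 and 2.05). Without the stretch HoxB stood at 82.4%. The HoxB peak with the highest control level per kb also lay in the stretch, 9692 bp from the start of Hoxb9, at 41.3 normalized reads per kb in control and 25.9 after knockdown.

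In HoxC, the lower peaks lay 1815 bp from the start of Hoxc13 (5.10 in control and 3.28 after knockdown) and 2700 and 9259 bp from that of Hoxc4 (4.58 and 3.06, and 4.79 and 3.61). The single lower HoxD peak lay 2283 bp from the start of Hoxd13 and stood at 4.90 and 3.79. Lower and higher peaks thus lay within 3111 bp of the same start, that of Hoxd13. Over 157 pairs of adjacent Hox peaks less than 1 kb apart, the differences of neighbours had a Pearson correlation of 0.003 and a Spearman correlation of 0.05 across pairs, which share libraries, and 85 pairs had the same sign.

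**Figure D5:**
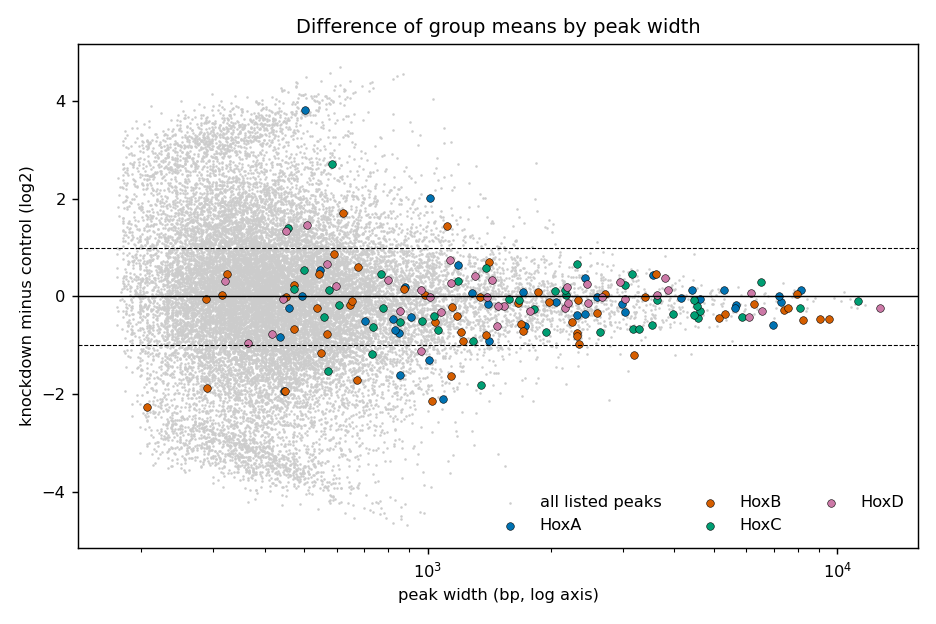
Knockdown minus control difference (log2, y axis) by peak width (bp, log x axis) for all listed peaks in grey and the peaks of the 4 Hox clusters in colour. Dashed lines mark a difference of 1. The spread narrows with width, and 1 of the 73 Hox peaks of 2 kb or more lies beyond the limit.

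H3K27me3 did not stop at the window edges, and listed peaks lay on both sides of each. The outermost HoxB peak at the Hoxb1 end stood at 7.51 in control and 7.06 after knockdown, and the first peak beyond it at 4.29 and 3.18. At the Hoxb13 end, the outermost peak stood at 5.83 and 5.75 and the first beyond it at 6.11 and 5.66. The outermost HoxA peak at the Hoxa13 end stood at 7.64 and 7.47, and the first beyond it at 6.67 and 6.63. At the opposite end of HoxA these values were 6.13 and 5.76 inside and 3.48 and 4.03 outside. The first peaks beyond the Hoxa13 and Hoxb13 ends were 3914 and 2214 bp wide, and those beyond the head ends of both clusters 672 and 653 bp. At the Hoxc13 end of HoxC they were 5.04 and 4.13 inside and 5.61 and 5.13 outside, and at the Hoxc4 end 6.94 and 6.56 inside and 4.03 and 4.21 outside. At the Hoxd13 end of HoxD they were 2.71 and 4.04 inside and 1.78 and 3.06 outside, and at the Hoxd1 end 4.65 and 5.08 inside and 3.29 and 2.91 outside. Both outermost HoxD peaks thus had a higher knockdown than control mean. The outermost HoxC peaks were 1292 bp (Hoxc13 end) and 4460 bp wide, and the first peaks beyond them 1748 and 761 bp. The outermost HoxD peaks were 451 bp (Hoxd13 end) and 1302 bp wide, and the first peaks beyond them 219 and 310 bp. These log2 values are means per peak, so steps between peaks of unlike width are not steps in level per kb.

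Noncoding RNA genes of the clusters were covered as the coding genes were. Of 17 listed RNA genes, 16 had the start under a peak. The exception, Halr1 (chr6:52102949-52113684), lies outside the HoxA window and had no peak within 5 kb of its start. Over the start of Hotair, an RNA of HoxC known to bind Polycomb repressive complex 2, the log2 mean was 5.70 in control and 5.44 after knockdown. Over that of Hottip, beyond Hoxa13, it was 7.64 and 7.47, and over that of Hotairm1 7.47 and 7.23. Over the start of Hoxd3os1 it was 6.15 and 6.46, and over that of Hoxb3os 6.87 and 7.32. Among the 16, only Hoxb5os had a start peak beyond the limit.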

How the data were processed

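H3K27me3 ChIP-seq was done in primary hippocampal neurons. Single-end reads were aligned by the authors to the mm10 genome using bowtie2, broad peaks were found by MACS2, and DiffBind compared the groups. In the deposited table each peak has 3 log2 values, namely the mean normalized read number of the control, of the knockdown and of all libraries together. These authors' means carry no replicate values. Its other columns hold the authors' own fold change, p-value and FDR and were not used. Normalization, peak merging, duplicate removal and input subtraction are not given in the sources used here, and input subtraction would bear most on weak peaks. There were 0 other columns of per-sample values.

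Here the log2 means were turned into normalized reads (2 to the power of the mean) and summed per cluster. A peak was a member if it overlapped a window by any base. Gene starts were those of the lowest-numbered APPRIS principal transcript in GENCODE M21, or of the gene record. Build and peak positions were compared with GRCm38: 23642 peaks lay inside its chromosomes and 26 on scaffolds. Scripts ran in Python 3.11.15 with pandas 2.3.3 and numpy 2.4.6. Their counting was checked on made-up data, where 100% of 200 planted differences over the 23668 peaks were recovered. The made-up groups were equal apart from the planted differences and had no spread. Full recovery was therefore fixed by the design, and the accuracy of detection was not examined. No test was run, because the authors' test columns were left out and their group means carry no spread between libraries, and no confidence interval could be formed, because depth is unknown.

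The members and gene lists were chosen with earlier results of these data known. Named in the text are all listed Hox genes, the widest peaks and those with the highest control level per kb, the peaks beyond a difference of 1 and those at the window edges, together with fixed lists of cluster RNAs, flanking and ParaHox genes, cofactors, retinoid genes, Polycomb genes and the Irx and Dlx families. From the Polycomb list, 1 item is not reported here. Peaks within 5 kb of a gene start were assigned to the gene. Alternatives varied the limit, filters on level and width, centring, pseudocount and membership.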

Additional observations from a re-analysis of the deposited data

How the results depend on the processing

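The order HoxB, HoxC, HoxA, HoxD from the lowest to the highest percentage of control was kept under each of 4 alternatives (median differences, the strongest peak of each cluster left out, peaks of 2 kb or more, and a minimum of 16 normalized reads in the unweighted mean of both groups). Of 67 alternative values, 58 stayed within the set margin: 5 percentage points for sums and coverage, 5 reads per kb for levels, 0.1 log2 for the median and a factor of 1.5 for counts. None turned a direction. The 9 that moved were counts of peaks. A limit of 0.5 gave 46 lower and 18 higher. A limit of 1.5 gave 4 higher, and its 11 lower stayed within the margin. An overall mean of at least 4 left 8 lower (5.56%) and 2 higher (1.39%), against 9.28% and 5.19% outside the windows. A width of at least 1 kb left 6 (5.04%) and 2 (1.68%), against 8.07% and 5.27%. The minimum of 16 reads left 8 and 2. For the other limits and the minimum of 16 reads, shares over all peaks were not computed, so no excess among Hox peaks was read from those counts. The filters leave fewer peaks to count. The alternatives with 16 reads, with 2 kb and without the stretch between Hoxb13 and Hoxb9 were chosen after seeing the data. No paired analysis was possible because only authors' group means were used. Leaving out a library was not possible for the same reason, and the spread between libraries and the depth limit every comparison.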

Other observations

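Outside the windows, homeobox genes that flank or resemble the Hox clusters were also covered. Of 12 flanking and ParaHox genes, 10 had the start under a peak. The strongest peak within 5 kb of Evx1, the homeobox gene beside HoxA, stood at 34.3 normalized reads per kb in control and 31.4 after knockdown, and that of Evx2, beside HoxD, at 34.7 and 27.4. The strongest peak at Cdx2, a regulator of Hox genes in the tail of the embryo, stood at 37.9 and 31.9 reads per kb. At Gsx1, a forebrain ParaHox gene, it stood at 29.5 and 13.1 reads per kb, a difference of -1.17 on the log2 scale, and at Gbx2, a midbrain-hindbrain boundary gene, at 26.7 and 38.1. The Irx family stood at 90.8% of control in summed reads over 26 peaks, with 1 lower and 0 higher. The Dlx family stood at 91.2% over 24 peaks, with 2 lower and 0 higher, against 89.0% for the Hox clusters. Over all listed peaks, 20.6% were lower and 20.4% higher, but the family peaks were wider. Their median widths were 1513.5 bp (Irx) and 1163 bp (Dlx), against 426 bp. Outside the windows, 8.07% of peaks of 1 kb or more were lower and 5.27% higher. Whether either family differs from peaks of like width was not tested.

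None of the 9 listed Hox cofactors (Pbx, Meis and Pknox genes) had a start under a peak, and 2 of them, Pbx3 and Meis1, had a peak within 5 kb. Of 12 Polycomb and H3K27 demethylase genes, 0 had a start under a peak and 2 (Cbx2 and Cbx8) had one within 5 kb. Only 5.14% of 21913 protein-coding genes outside the Hox list had a start under a peak. With so low a share, 0 in lists this short sets neither list apart. Among 7 genes of retinoic acid synthesis, breakdown and signalling, which control Hox genes in the embryo, 5 had the start under a peak. The strongest peak at Cyp26a1, which breaks down retinoic acid, stood at 38.5 normalized reads per kb in control and 27.5 after knockdown. At Rarg, a retinoic acid receptor, it stood at 12.5 and 22.2.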
